A study of Mus musculus with 72 samples.

Results

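The Bcl2 family decides at the mitochondrial outer membrane whether a cell enters intrinsic apoptosis. Its guardians Mcl1, Bcl2 and Bcl2l1 (Bcl-xL) hold the pore-forming effectors Bax and Bak1 in check, and the BH3-only members Bcl2l11 (Bim), Bid and Bad release or activate these effectors. Mcl1 protein and mRNA are known to turn over quickly, and mouse embryonic stem cells are known to be primed for apoptosis. Described here are the mRNAs of these 8 genes, taken by symbol from the 51826 genes in the count tables, with their levels in 4 subcellular fractions and, for exons and introns, the part of the RNA that was new after a given time of metabolic labeling.

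The cells were E14TG2a, a mouse embryonic stem cell (mESC) line, grown in "2i + LIF" medium, which blocks differentiation signals. They were given 4-thiouridine (4sU), a uridine analog that enters RNA made during labeling and gives a C where a T is encoded once it has been alkylated (SLAM-seq, T2C conversion). A nuclear, a cytosolic and a membrane fraction were extracted from each culture one after the other, and whole cells (total extract) were taken from the same culture. Labeling lasted 15, 20 or 30 min in replicates 1 and 2. It lasted 20, 40, 60 or 120 min in replicates 3 and 4, and 60 or 120 min in replicates 5 and 6. Each group of 1 fraction, labeling time and replicate pair thus had 2 libraries, all of them labeled, and the replicates were independently passaged cultures of 1 line. By the labels the 4sU dose was 500 µM at 15 to 40 min and 100 µM at 60 and 120 min. The methods give the higher dose also for some 60 min cultures, by number of replicates and not by name, from which it was inferred here that replicates 3 and 4 had 500 µM throughout and replicates 5 and 6 had 100 µM. Replicate pair, dose and, in part, labeling time can therefore not be told apart between pairs. Of 72 libraries, 64 (16 per fraction) were used throughout, and the 8 libraries of 120 min of replicates 3 and 4, which the study set aside, were used for changes in level during labeling, for 1 alternative of the fraction tests and in the search for libraries that stand apart.

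Libraries held 13185351 to 52975732 reads assigned to genes. Marker genes followed the labels, though those of a fraction were not confined to it. The 7 stem cell markers, among them Pou5f1 and Nanog, summed to means of 3930 (nucleus) to 5653 (cytosol) counts per 1000000 reads (CPM), against 19.9 to 24.8 CPM for 12 markers of other cell types. Nuclear RNAs such as Malat1 summed to 1571 CPM in the nucleus and 322 in the cytosol. The 13 mitochondrial protein-coding mRNAs, which belong to the membrane fraction, summed to 105854 CPM there, to 9058 in the nucleus and to 1134 in the cytosol. Membrane mRNAs such as Hspa5 summed to 7940 CPM at the membrane, 2224 in the nucleus and 422 in the cytosol. Cytosolic mRNAs such as Gapdh summed to 9423 CPM in the cytosol, 5950 in the nucleus and 5294 at the membrane. The study names a slight mitochondrial contamination of the nuclear fraction. Carry-over between fractions was not tested here. In whole cells, replicate 6 stood apart. Its share of new Mcl1 mRNA was 74.6% at 60 min and 42.5% at 120 min, whereas replicate 5 gave 55.3% and 77.3%. All 7 members with a share ran in this falling order in replicate 6, and the median whole-cell share of genes with 5000 T counts or more ranged from 10.9 to 36.5% among the 60 min libraries and from 17.0 to 37.9% among those of 120 min. Whole-cell shares are therefore given with and without replicate 6, and the tests of shares use the nucleus, cytosol and membrane fraction.

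The genes are placed on GRCm38 as follows. Mcl1 (ENSMUSG00000038612) is a short gene at chr3:95658788-95663176 on the plus strand. Bcl2 (ENSMUSG00000057329) is the longest of the group, with 176097 bases at chr1:106538178-106714274 on the minus strand. Bcl2l1 (ENSMUSG00000007659) lies at chr2:152780668-152831728, minus strand, and Bcl2l11 (ENSMUSG00000027381) on the same chromosome at chr2:128126038-128162547, plus strand. Bax (ENSMUSG00000003873) lies at chr7:45461697-45466898, minus strand, and Bak1 (ENSMUSG00000057789) at chr17:27019810-27029009, minus strand. Bid (ENSMUSG00000004446) lies at chr6:120891930-120916853, minus strand, and Bad (ENSMUSG00000024959) at chr19:6941861-6951899, plus strand. Exon lengths, over which levels are compared between genes, count each base that lies in an exon of any annotated transcript. Transcripts with a retained intron are included. These lengths ranged from 1576 bases for Bax to 9157 bases for Bcl2. Some share sequence with neighbours in the annotation. The 5′ part of Bax lies within Gm45808 on the same strand, Bid overlaps Gm44260 on the same strand and Bcl2l13 on the other, and Bak1, Bcl2 and Bad overlap Ggnbp1, D630008O14Rik and Gpr137 on the opposite strand. The libraries kept the strand, but the strand setting of the counting is not given in the sources used here, so that reads in these overlaps are uncertain.

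The 3′ untranslated regions (UTRs) of the group differ in AU-rich pentamers (ATTTA, read as AUUUA in the RNA), a motif known from mRNAs that decay quickly. On the RNA strand, the 3′ UTR of Mcl1 (transcript Mcl1-201) held 8 of them in 2353 bases, or 3.40 per kb, more than 84.1% of 3′ UTRs of genes with measured shares. Bcl2 (Bcl2-201) held 15 in 5086 bases, 2.95 per kb, and also 2 copies of the longer form TTATTTATT, which contains the pentamer and which 20.2% of 3′ UTRs of its length held. Bcl2l11 (Bcl2l11-205) held 6 in 4218 bases (1.42 per kb) and Bcl2l1 (Bcl2l1-202) 1 in 1473 bases (0.679 per kb). The 3′ UTRs of Bak1 (Bak1-202, 1121 bases), Bid (Bid-201, 1427 bases), Bad (Bad-201, 375 bases) and Bax (Bax-201, 165 bases) held none. Over 10408 3′ UTRs, 68.5% held at least 1 pentamer. Among 3′ UTRs within 20% of the same length, the share was 93.4% for Mcl1, 99.6% for Bcl2, 98.0% for Bcl2l11, 84.5% for Bcl2l1, 83.4% for Bid, 78.1% for Bak1, 42.3% for Bad and 27.8% for Bax. The 4 genes with a match are shown with the window of 30 bases that holds most pentamers, 5′ to 3′ on the RNA strand in DNA letters, with pentamers in capitals (overlapping copies run together).
Mcl1, chr3:95662590-95662619, plus strand: ATTTAtccttgatcatagtttgcttATTTA
Bcl2, chr1:106543003-106543032, minus strand: tATTTAggaaaaaaaagATTTATTTATTTA
Bcl2l11, chr2:128161350-128161379, plus strand: tgtatATTTAttttccgcttATTTAaatgt
Bcl2l1, chr2:152780892-152780921, minus strand: taagcgtgtctgtATTTAtgtgtgaggagc
The window of Bcl2 holds 4 pentamers, those of Mcl1 and Bcl2l11 hold 2 each and that of Bcl2l1 holds 1. A match describes these letters alone and is no measure of binding or decay.

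How much of each mRNA was present was asked first. Per kb of exon, the guardian Mcl1 and the effector Bax were the most abundant mRNAs of the group in every fraction, and the guardian Bcl2 was close to absent. In the cytosol, Mcl1 was at 120 ± 13.7 CPM per kb and Bax at 115 ± 10.5 (SD, n = 16 here and for the levels that follow), both above 98.6% of genes with a read. Bak1 followed at 62.6 ± 6.38, and Bid, the BH3-only member that caspase 8 cleaves, at 24 ± 3.38. Bcl2l1 was at 12.3 ± 1.19, Bad, which growth factor signals keep inactive, at 8.84 ± 0.772 and Bcl2l11, the activator of Bax and Bak1, at 2.45 ± 0.493 CPM per kb. Bcl2 was at 0.0594 ± 0.0337 CPM per kb, above only 35.9% of genes with a read. These values are relative to the poly(A) RNA of a fraction. Fewer cells of a kind and less RNA per cell cannot be told apart in such bulk extracts. CPM also do not give the amount of RNA that each fraction held. The study estimated relative amounts by fitting the fractions to whole cells, with the least mRNA in the cytosol. That estimate was not used here.

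**Figure D1:**
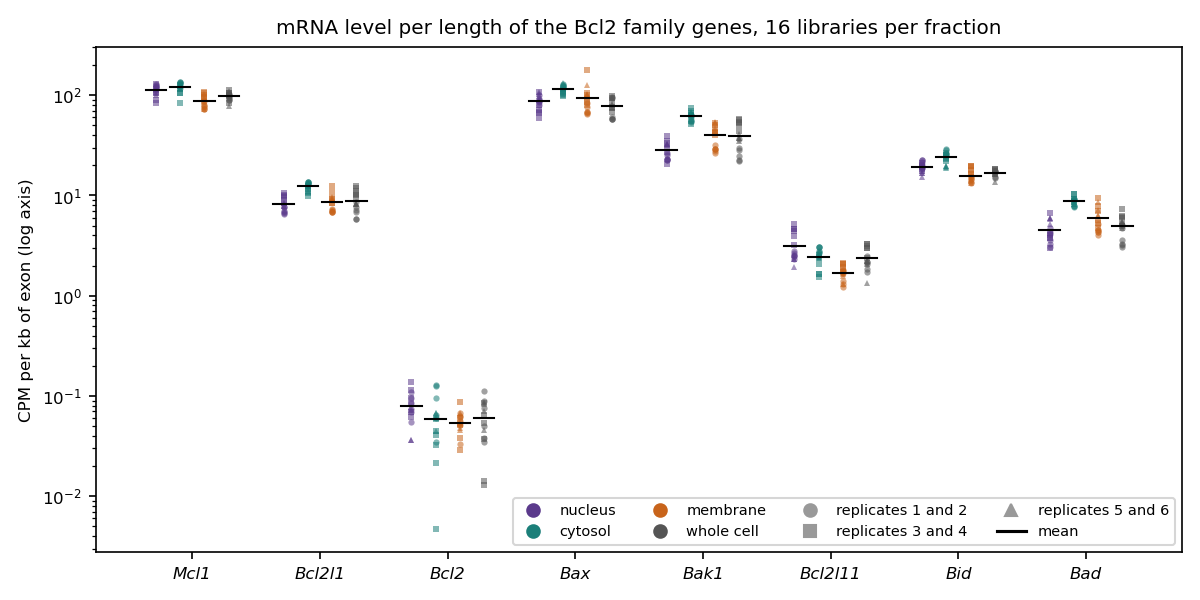
Level of the 8 mRNAs in CPM per kb of exon (log axis) in the nucleus, cytosol, membrane fraction and whole cells. Each point is 1 of 16 libraries of a fraction and the black bar is their mean. Mcl1 and Bax lie at the top of every fraction (means of 78.2 to 120), and Bcl2 lies at the bottom (means of 0.0543 to 0.0796).

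The order was nearly the same in all fractions. Means ran in the order Mcl1, Bax, Bak1, Bid, Bcl2l1, Bad, Bcl2l11 and Bcl2 in the nucleus, the cytosol and whole cells, and in the membrane fraction Bax (93.7 ± 28.5 CPM per kb) came before Mcl1 (88.2 ± 11.9). The difference between Mcl1 and Bax was within the sum of their SDs in each of the 4 fractions, so that this pair was not ordered at these exon lengths. A length over spliced exons alone would be shorter for Bax, Bid and Bad and would raise their values. The order by such a length was not tested. The ranges of Bcl2l1 and Bad overlapped in all 4 fractions, those of Bad and Bcl2l11 in the nucleus and in whole cells, and those of Bak1 and Bid in the nucleus. All other neighbours in the order had ranges that did not overlap, and Bcl2 stood below every other member in each fraction.

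As CPM of the whole gene, the spread between libraries was as follows. Whole-cell Mcl1 ranged from 266 to 382 CPM with a median of 341. Bcl2l1 ranged from 26.6 to 57.0 CPM with a median of 38.2. Bcl2 ranged from 0.119 to 1.04 CPM with a median of 0.542, which came from 2 to 18 reads per library. Nuclear libraries held 7 to 46 reads of Bcl2, cytosolic ones 1 to 35 and membrane ones 6 to 17, and no share of new mRNA is given for this gene, since its exons had as few as 32 T counts in a library. Of the effectors, Bax ranged from 90.8 to 153 CPM (median 124) and Bak1 from 53.0 to 138 CPM (median 90.9) in whole cells. The range of Bak1 followed the replicate pairs. It was 53.0 to 88.7 CPM in replicates 1 and 2, 105 to 138 CPM in replicates 3 and 4 and 84.1 to 98.4 CPM in replicates 5 and 6, and replicates 3 and 4 overlapped neither other pair. Of the BH3-only members, Bid ranged from 48 to 65.1 CPM, Bcl2l11 from 10.9 to 26.4 CPM and Bad from 7.90 to 18.7 CPM.

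The level of each mRNA in the nucleus was then compared with that in the cytosol. Relative to the poly(A) RNA of each fraction, Bak1, Bad and Bcl2l1 were lower in the nucleus than in the cytosol, and no member was called higher. This does not order the amounts of mRNA that nucleus and cytosol held. Cytosolic Bak1 ranged from 125 to 180 CPM (median 153) and nuclear Bak1 from 49.5 to 94.1 CPM (median 69.3), without overlap, which is 2.23-fold lower in the nucleus (log2 -1.16 ± 0.11 SE, edgeR quasi-likelihood test, adjusted p = 2.07e-14). Bad ranged from 19.7 to 26.7 CPM in the cytosol and from 7.66 to 17.2 CPM in the nucleus, again without overlap (2.03-fold lower, adjusted p = 1.86e-11). Bcl2l1 ranged from 45.5 to 62.8 CPM in the cytosol and from 30.2 to 48.9 CPM in the nucleus, where the ranges overlapped (1.52-fold lower, adjusted p = 2.00e-09). All 3 were lower in the nucleus in 16 of 16 cultures, which carry 6 replicate numbers over several labeling times. The fit held no term for replicate, so that its p-values take the libraries as independent. A call here and in the other tests needs an adjusted p under 0.05 over all genes tested and an absolute log2 difference over 0.5, and 63.7% of all 16093 genes were called in this comparison, so that 3 of 8 members is below the share over all genes.

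The other members lay within these limits. Bax was at a median of 181 CPM in the cytosol and 139 CPM in the nucleus (log2 -0.44 ± 0.10, adjusted p = 0.000126) and Bid at 89.1 and 67.6 CPM (log2 -0.36 ± 0.06, adjusted p = 4.68e-07). Mcl1 was at 422 and 402 CPM, with a log2 difference of -0.11 ± 0.06 (adjusted p = 0.0592). Bcl2l11 was at 20.2 and 20.8 CPM, higher in the nucleus in 8 cultures and lower in 8 (log2 0.34 ± 0.11, adjusted p = 0.00400). Nuclear Bcl2l11 was 18.5 to 22.6 CPM in replicates 1 and 2, 25.8 to 42.1 CPM in replicates 3 and 4 and 15.5 to 20.3 CPM in replicates 5 and 6, and replicates 3 and 4 lay above both other pairs. Within replicates 3 and 4 alone Bcl2l11 was called higher in the nucleus (log2 0.98, adjusted p = 3.07e-09), and so was Bcl2 (log2 1.30, adjusted p = 0.00741), which over all replicates had a log2 difference of 0.39 ± 0.23 (adjusted p = 0.106).

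The median gene was itself higher in the nucleus, by 0.29 on the log2 scale, and this median moved between -0.02 and 0.43 with the scaling, filter and libraries used. Relative to the median gene, Bak1 was at -1.45 (range over the alternatives -1.62 to -1.17), Bad at -1.31 (-1.73 to -0.70), Bcl2l1 at -0.89 (-1.16 to -0.72), Bax at -0.72 (-1.09 to -0.32), Bid at -0.65 (-0.92 to -0.34) and Mcl1 at -0.40 (-0.66 to -0.28). Each of these 6 stayed below the median gene in every alternative. Bcl2l11 (-0.41 to 0.54) and Bcl2 (-0.30 to 0.86) lay on either side of it. The calls of Bax and Bid depended on the alternative, with Bax past the limits in 9 of 15 and Bid in 6 of 15, and the call of Bcl2l1 was lost within replicates 3 and 4 (log2 -0.38). Leaving out replicate 2, 4 or 5 brought in both Bax and Bid, and leaving out replicate 2 also Bcl2 (log2 0.52, adjusted p = 0.0494), so that 6 members were called without replicate 2 and 5 without replicate 4 or 5.

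Of a list of 21 other genes of intrinsic apoptosis, 18 were tested, and 2 were higher and 6 lower in the nucleus than in the cytosol. Higher were Htra2, a mitochondrial protease that is released in apoptosis (log2 1.45, adjusted p = 7.66e-28), and Xiap, an inhibitor of caspases (log2 0.57). Among those lower were Vdac2, a mitochondrial channel that binds Bak1 (log2 -1.12, adjusted p = 7.68e-20), Pmaip1 (Noxa), the BH3-only partner of Mcl1 (log2 -1.27, adjusted p = 1.18e-12), Cycs, which encodes cytochrome c, and Casp8, the caspase that cleaves Bid.

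Between the membrane fraction and the cytosol, none of the 8 members passed the limits, whereas 36.9% of all genes did. DESeq2 also called 0 members. By edgeR 5 members had an unadjusted p under 0.05, and their adjusted p was also under 0.05. These were Bid (4.58e-05), Bak1 (0.00774), Bcl2l1 (0.0223), Mcl1 (0.0356) and Bad (0.0405), which missed the log2 limit alone. The log2 differences of the members ran from -0.34 ± 0.11 for Bak1 (adjusted p = 0.00774) to 0.20 for Bcl2 (adjusted p = 0.464), with Bax at 0.01 (adjusted p = 0.937), beside a median of -0.16 over all genes. In CPM, Bak1, Bid and Bcl2l1 were lower in the membrane fraction in 16 of 16 cultures, with medians of 102 against 153, 53.1 against 89.1 and 39.8 against 57.3 CPM. Scaled by library size alone, with 105854 CPM of mitochondrial mRNA in the membrane fraction, 5 members were called lower (Bak1, Bid, Bad, Bcl2l11 and Bcl2l1, log2 -0.63 to -0.52) and the median gene shifted to -0.47. Bak1 was also called without replicate 5 (log2 -0.51), and Bcl2l11 within replicates 5 and 6 (log2 -0.52, adjusted p = 9.41e-05). Of the 18 other apoptosis genes, 2 were higher at the membrane, Htra2 (log2 0.67, adjusted p = 2.89e-13) and Bcl2l10, a further guardian (log2 1.64, adjusted p = 7.96e-07), and 4 were lower, among them Pmaip1 (log2 -0.77) and Casp8 (log2 -0.87). Bcl2l10 rested on few reads, 7 to 30 per library at the membrane and 3 to 15 in the cytosol. Casp8 had 10 to 87 and 43 to 118.

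How quickly new mRNA replaced old was read from the share of new to total mRNA, that is, the T2C conversions divided by the T positions read in the exons of a gene and by the conversion rate of the library. By the rates fitted over all libraries of a fraction, Mcl1 and Bcl2l11 were replaced fastest, Bid and Bcl2l1 came next, and Bax, Bak1 and Bad were slowest, in each of the 4 fractions. The shares of Mcl1 in the cytosol were 8.20 and 5.32% at 15 min, 21.9 and 20.1% at 30 min, and 84.9 and 84.7% at 120 min in replicates 5 and 6. Those of Bcl2l11 were 3.57 and 3.11% at 15 min, 13.2 and 15.8% at 30 min, and 76.7 and 89.0% at 120 min. At 120 min most Mcl1 and Bcl2l11 mRNA in the cytosol was thus new.

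Bid and Bcl2l1 lay in the middle. Cytosolic Bid was at 2.12 and 1.46% at 15 min and at 65.6 and 59.9% at 120 min, and Bcl2l1 at 2.37 and 0.813% and at 61.1 and 53.2%. The effectors and Bad stayed mostly old. Cytosolic Bax was at 1.67 and 1.80% at 15 min and at 17.8 and 16.3% at 120 min, and Bak1 at 1.46 and 1.41% and at 19.2 and 15.8%. Bad was at 1.71 and 2.53% at 15 min and at 27.1 and 24% at 120 min. In the cytosol, the median of genes whose T counts reached 5000 was 34.5 to 34.8% at 120 min, so that 4 members lay above it and 3 below it in both libraries. No background was subtracted from shares and unlabeled libraries were not used here, so that values near the median of 15 min (1.34 to 1.80% in the cytosol) cannot be told from it.

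**Figure D2:**
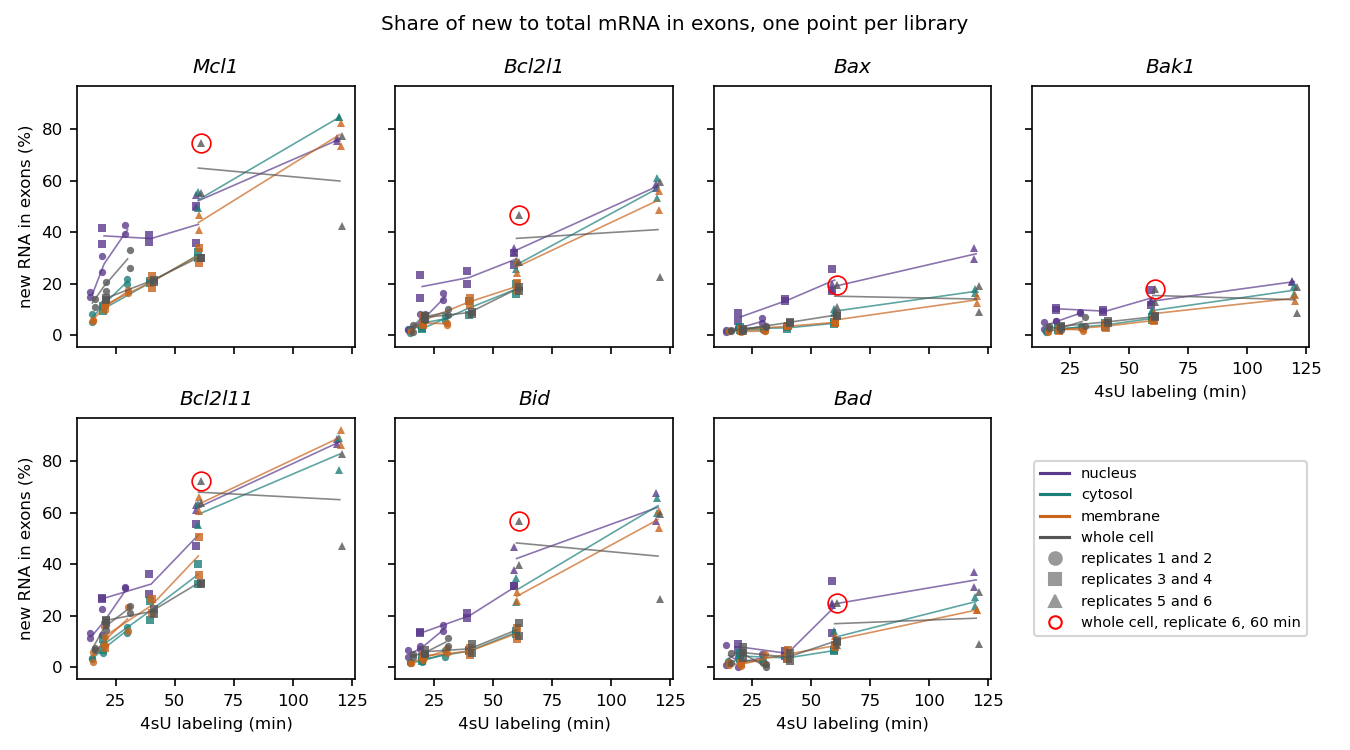
Share of new to total mRNA in exons (percent) against labeling time (min) for 7 members, with 1 point per library, a color per fraction and lines that join the means of a replicate pair. Cytosolic Mcl1 reaches 84.9 and 84.7% and cytosolic Bax 17.8 and 16.3% at 120 min, and whole-cell replicate 6 at 60 min is circled in red.

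An apparent half-life puts these courses on 1 scale. It is the half-life in a single exponential with a delay of 5 min fitted to the 16 libraries of a fraction, and it includes the steps before the mRNA reached that fraction. Errors are SDs between the 3 replicate pairs, each fitted alone. The pairs had different labeling times and, in part, different doses, so that these SDs hold more than the spread between replicates. In the cytosol, Bcl2l11 had 65.0 ± 40.2 min and Mcl1 66.2 ± 27.6 min, and 8.06% and 8.51% of 12328 genes were faster. Bid had 127 ± 136 min and Bcl2l1 130 ± 80.0 min, Bad 328 ± 156 min, Bak1 439 ± 78.3 min and Bax 477 ± 178 min, beside a median of 214 min over all genes. Of all genes, 81.1% were faster than Bax and 78.5% faster than Bak1. The SDs are wide because the fits of the pairs differed, and replicate, labeling time and dose cannot be told apart in them. Cytosolic Bid, for example, had 89.1 min in replicates 5 and 6 and 348 min in replicates 1 and 2, and cytosolic Bid and Bcl2l1 differed from Mcl1 by less than their own SDs.

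The other fractions gave a like order. In the nucleus, Bcl2l11 had 46.3 ± 7.11 min and Mcl1 47.6 ± 10.9 min, Bid 87.2 ± 18.1 min and Bcl2l1 96.7 ± 19.8 min, while Bad had 182 ± 119 min, Bax 193 ± 83.9 min and Bak1 279 ± 70.8 min (median over all genes 136 min). Here Bid and Bcl2l1 differed from Mcl1 and from Bcl2l11 by more than the sum of the SDs. In the membrane fraction, values ran from 56.3 ± 28.2 min for Bcl2l11 and 74.8 ± 23.1 min for Mcl1 to 530 ± 85.2 min for Bak1 and 596 ± 142 min for Bax. In whole cells they ran from 65.6 ± 21.3 min for Bcl2l11 and 68.4 ± 27.8 min for Mcl1 to 424 ± 83.7 min for Bak1 and 432 ± 34.3 min for Bax. Without replicate 6, whole-cell values were 66.4 min for Bcl2l11, 68.9 min for Mcl1, 135 min for Bid, 137 min for Bcl2l1, 310 min for Bad, 386 min for Bak1 and 407 min for Bax, each within 1 SD of the value with it.

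**Figure D3:**
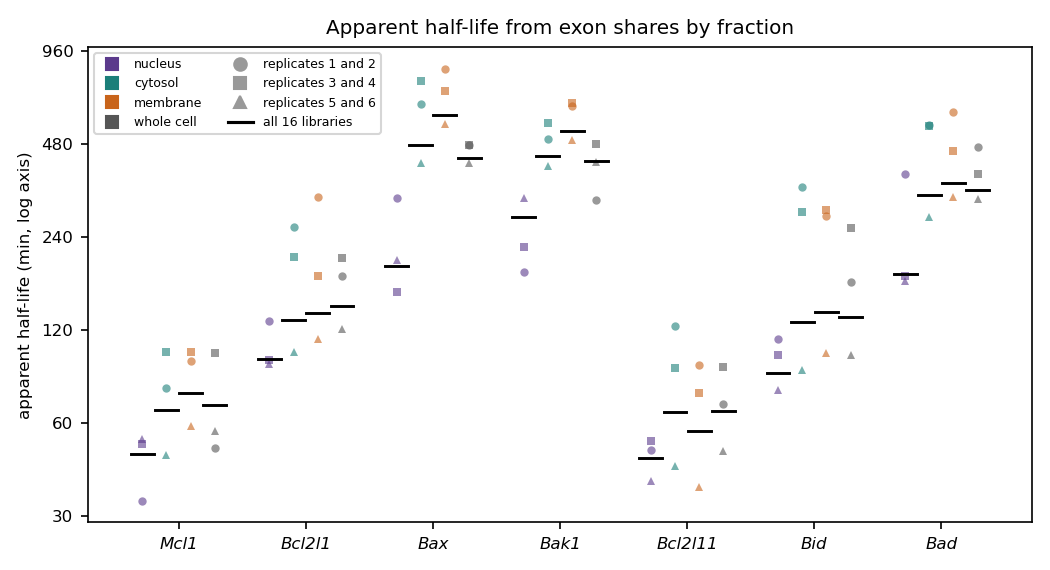
Apparent half-life in min (log axis) of 7 members in the 4 fractions. Points are fits to the libraries of a replicate pair and bars are fits to all 16 libraries. Bcl2l11 and Mcl1 lie lowest in every fraction (46.3 to 74.8 min over all libraries), and Bax and Bak1 highest in the cytosol, membrane fraction and whole cells (424 to 596 min).

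New mRNA appeared in the nucleus first. All 7 members with a share had a higher share in the nucleus than in the cytosol at equal time and replicate pair, as did 14 of 15 other apoptosis genes with a share, and 79.4% of all 11646 genes were called (limma with trend). At 15 min the nuclear share of Mcl1 was 16.8 and 14.8%, above both cytosolic libraries (8.20 and 5.32%), and at 40 min nuclear Bax was at 13.2 and 14.0% against 2.58 and 3.12% in the cytosol. The log2 difference was largest for Bid (1.29 ± 0.15 SE, adjusted p = 1.02e-09), Bax (1.20 ± 0.16, adjusted p = 1.93e-08) and Bak1 (1.16 ± 0.15, adjusted p = 4.39e-09), close to the median of 1.05 over all genes. It was 0.90 for Bcl2l1, 0.88 for Bcl2l11, 0.81 for Mcl1 and 0.64 ± 0.26 for Bad (adjusted p = 0.0230). The nuclear share was higher in 16 of 16 cultures for Bak1, in 15 for Bax and Bid, in 14 for Bcl2l11 and in 13 for Mcl1, Bcl2l1 and Bad.

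Within replicates 5 and 6, which were labeled for 60 and 120 min, the differences were smaller. Mcl1 had a log2 difference of -0.082 (adjusted p = 0.513), with 54.6 and 49.9% in the nucleus against 55.7 and 49.5% in the cytosol at 60 min, and Bax and Bad were the 2 members still called. With 40 min and longer times only, over replicates 3 to 6, the calls of Mcl1 (log2 0.29, adjusted p = 0.0540) and Bcl2l11 (log2 0.30) were lost. Within replicates 1 and 2 the call was lost for Bcl2l1 (adjusted p = 0.0511), Bax (0.0745) and Bad (0.858). The call of Bad was also lost without replicate 3, 4 or 6 (log2 0.44, 0.64 and 0.60) and with a pseudocount of 0.1 (log2 0.47, adjusted p = 0.197), and nuclear Bad was as low as 0% in a 20 min library.

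Between the membrane fraction and the cytosol, none of the 7 members differed in share by limma (adjusted p of 0.386 to 0.745, log2 differences of -0.28 to 0.23), and none had an unadjusted p under 0.05, whereas 14.5% of all genes were called. Mcl1 at 120 min was at 82.3 and 73.7% at the membrane against 84.9 and 84.7% in the cytosol, and Bcl2l11 at 92.2 and 86.3% against 76.7 and 89.0%. Of the 15 other apoptosis genes 2 were called higher at the membrane, Xiap (log2 0.75) and Apaf1, the scaffold of caspase 9 activation (log2 0.61).

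At 60 min both sets of replicates could be set side by side, with the doses given above. The study also compared both doses at 60 min and described the shares as similar despite different conversion rates. Here the median share over genes was 24.2% in replicates 3 and 4 and 24.8% in replicates 5 and 6 in the nucleus. It was 9.69 and 19.7% in the cytosol and 9.87 and 15.0% in the membrane fraction, in the same order. In the cytosol, Mcl1 was at 32.4 and 30.1% in replicates 3 and 4 and at 55.7 and 49.5% in replicates 5 and 6. Bid was at 14.2 and 12.9% against 34.8 and 25.2%, and Bax at 4.30 and 5.03% against 10.1 and 8.64%. All 7 members were higher in both libraries of replicates 5 and 6 than in both of replicates 3 and 4, as were 80.7% of 12864 genes. In the nucleus 3 of 7 members were, against 19.7% of 13914 genes. The conversion rate by which shares are divided was 5.83 and 7.57% in the cytosolic libraries of replicates 3 and 4 and 2.38 and 2.58% in those of replicates 5 and 6, and its part in the difference was not tested.

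Introns, which stand for pre-mRNA or for transcripts that keep an intron, were replaced faster than exons. In the nucleus, the intron share of the 7 members was above the exon share by log2 2.79 ± 0.14 for Bak1, 2.39 ± 0.29 for Bad, 2.26 ± 0.18 for Bax and 2.19 ± 0.22 for Bcl2l1, and by 0.99 ± 0.10 for Mcl1, 0.78 ± 0.10 for Bid and 0.63 ± 0.12 for Bcl2l11. All 7 were called, as were all 11 other apoptosis genes tested and 96.7% of all 10380 genes, whose median was 1.96. At 15 min the nuclear introns of Mcl1 (27.6 and 34.1%) and Bcl2l1 (29.6 and 30.6%) lay above those of Bax (13.9 and 15.0%), Bcl2l11 (11.0 and 11.9%), Bad (7.58 and 8.31%) and Bid (5.11 and 6.58%) in both libraries. The 2 libraries of Bak1 (11.9 and 41.0%) lay too far apart to place it. The median over genes was 13.5%, and at 20 min in replicates 3 and 4, Mcl1 (77.3%, mean of 2 libraries), Bcl2l1 (72%) and Bak1 (71.4%) were highest and Bid (20.4%) was again lowest, beside a median of 37.4%.

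Bax introns were the least labeled at 120 min. There, in replicates 5 and 6 the nuclear intron share of Bax was 65.0 and 70.5%, and only 5.66% of 12244 genes had a lower mean, while the other members were at means of 80.4% (Bak1) to 98.1% (Bcl2l11) and the median gene was at 93.8%. At 60 min the order differed between the pairs, with Bax at 60.7 and 77.9% and Bid at 60.2 and 61.9% in replicates 3 and 4, and Bax at 56.1 and 57.9% and Bid at 83.1 and 88.5% in replicates 5 and 6. In the cytosol the introns of Bax were at 12.4 and 11.1% at 40 min and at 40.6 and 48% at 120 min, where 2.95% of genes were lower and the median was at 99.5%. Shares over 100% occur, since the ratio is divided by an estimated rate. The T counts in introns were 35.4 ± 6.41% of the T counts of Bax in the nucleus and 17.5 ± 3.49% in the cytosol, above 80.1% of genes there, against 0.588 ± 0.430% for cytosolic Bak1 and a median of 7.51% over all genes. The annotation lists a transcript with a retained intron for Bax (Bax-206), Bid (Bid-205) and Bad (Bad-207). Its part in these counts, and that of the overlapping Gm45808, was not tested.

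**Figure D4:**
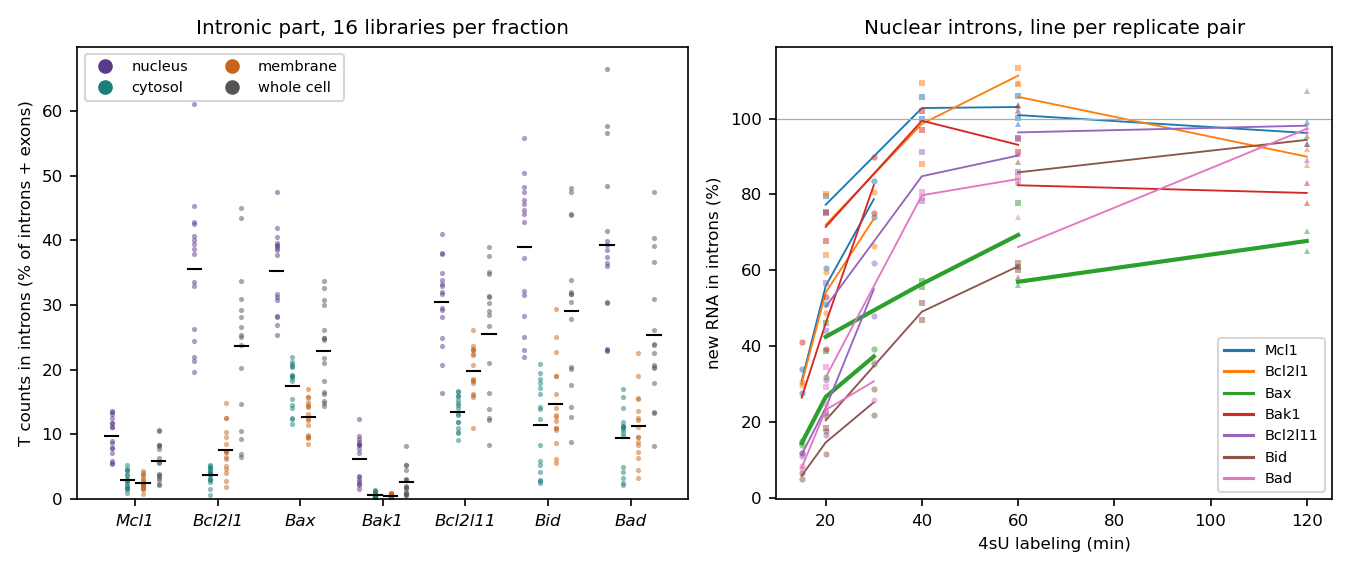
Left, T counts in introns as percent of those in introns and exons for the members by fraction. Right, share of new to total RNA in nuclear introns (percent) against labeling time (min), with a line per replicate pair and Bax in bold. Bax ends at 65.0 and 70.5% at 120 min, below the 6 other members.

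Along a gene, nuclear exons near the 3′ end held more new RNA than exons upstream at short times. For the exons of Bcl2l1, Mcl1, Bid and Bax given here, this was also so at 120 min. In Bcl2l1, the last exon (chr2:152780668-152782282) was at a mean of 3.03% at 15 min, 19.6% at 30 min and 61.2% at 120 min, while the exon 47694 bases upstream (chr2:152828362-152830102) was at 0.418, 2.76 and 50.0%. In Mcl1, the last exon (chr3:95660707-95663176), which holds the 3′ UTR with the pentamers shown above, was at 17.0% at 15 min, 43.5% at 30 min and 78.0% at 120 min, against 8.59, 25.4 and 57.4% for the first exon (chr3:95658788-95659487). In Bid, an exon 924 bases from the 3′ end (chr6:120892854-120894292) was at 16.1% at 30 min and 61.3% at 120 min, against 6.50 and 54.8% for an exon 8226 bases from it (chr6:120900156-120900366). In Bax at 120 min, the last exon (chr7:45461697-45461966) was at 35.0% and the first (chr7:45466742-45466898), which overlaps Gm45808, at 15.9%. In Bcl2l11 an upstream exon ran the other way at 40 min, with libraries far apart, but not at 120 min. This exon at chr2:128129637-128131495, 31052 bases from the 3′ end and part of the short transcript Bcl2l11-202, was at 66.0% at 40 min (44.1 and 87.9% in the libraries) against 25.1% for the last exon (chr2:128158231-128162547), and at 87.3 against 90.1% at 120 min. Each of these is a mean of 2 libraries and was not tested.

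The genes whose exon shares ran most like those of each member over 24 means (3 fractions by 8 groups of time and replicate pair), measured as the root mean square difference in log2 share among 11645 other genes, were Pnrc2 (0.15) and Kti12 (0.19) for Mcl1, Mier3 (0.19) and Ccnt1 (0.19) for Bcl2l11, Chtf8 (0.28) and Patz1 (0.32) for Bcl2l1, Kansl2 (0.23) and Klhl20 (0.25) for Bid, Cdca3 (0.24) and Psme3 (0.26) for Bax, Cacybp (0.19) and Arf1 (0.21) for Bak1, and Dhdds (0.44) and Ube4b (0.47) for Bad. Among the members themselves, the course of Mcl1 was closest to that of Bcl2l11 (0.41), that of Bcl2l1 to that of Bid (0.49) and that of Bax to that of Bak1 (0.51). Mcl1 and Bax were 2.52 apart, beside a median of 2.07 between Mcl1 and all genes.

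Whether the levels themselves changed during labeling was tested within replicates 3 and 4. In whole cells at 60 against 20 min, no member and 0% of 16858 genes were called by edgeR or by DESeq2, with 747 and 640 genes, and 0 members by edgeR, at an unadjusted p under 0.05. At 120 against 20 min, no member was called beside 0.113% of all genes (19 by edgeR, 118 by DESeq2, which called no member), and 1 member, Mcl1, had an unadjusted p under 0.05. Against unlabeled whole cells, the study found more genes changed at the longer times of the higher dose than were called here. It excluded these times for that reason. The reference used here was itself labeled, for 20 min. Changes within that time are therefore missed, and few calls do not mean that levels were unaffected. In replicates 5 and 6 at 120 against 60 min, no member and 0% of genes were called by either tool (123 and 101 genes at an unadjusted p under 0.05). This contrast includes the whole-cell libraries of replicate 6, whose shares fell from 60 to 120 min. Whether the levels in these libraries follow labeling time was not tested, so that the lack of calls is uncertain. In whole cells Mcl1 was at 382 and 356 CPM at 20 min and at 275 and 245 CPM at 120 min, lower in both libraries (log2 -0.43 ± 0.14, adjusted p = 0.234). The log2 difference of Mcl1 was -0.36 in the nucleus (adjusted p = 0.239), -0.38 in the cytosol (adjusted p = 0.131) and -0.26 in the membrane fraction. No alternative called Mcl1, although it came to -0.50 in the nucleus (adjusted p = 0.129) and in whole cells (adjusted p = 0.321) with library size alone, and had an adjusted p of 0.000353 in the cytosol (log2 -0.38) and 0.0393 in the nucleus (log2 -0.36) with the replicate block, in which the replicate number is a term of the fit. In replicates 5 and 6, with the same limit of replicate 6, whole-cell Mcl1 was at 266 and 353 CPM at 60 min and at 361 and 378 CPM at 120 min, and was not lower at 120 min.

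In the nucleus at 120 against 20 min, Bcl2 was the member called, beside 2.91% of all genes. It was at 1.27 and 0.868 CPM at 20 min and at 0.209 and 0.219 CPM at 120 min, a 4.27-fold fall (log2 -2.09 ± 0.51, adjusted p = 0.0383), which rested on 23 and 46 reads against 3 and 5. The call was lost when any of the 6 replicates was left out (adjusted p of 0.0702 to 0.117, log2 -2.54 to -1.77). In replicates 5 and 6, nuclear Bcl2 was at 0.336 and 0.335 CPM at 60 min and at 0.715 and 0.658 CPM at 120 min. Nuclear Bcl2l11 was at 42.1 and 37.4 CPM at 20 min and at 28.1 and 20.4 CPM at 120 min (log2 -0.57 ± 0.16, adjusted p = 0.0650). It was called by DESeq2 (adjusted p = 0.0314), without a filter on low counts (0.0387) and with the replicate block (adjusted p = 0.0180). Nuclear Bak1 was at 49.5 and 73.5 CPM and then at 69.3 and 88.7 CPM (log2 0.52 ± 0.20, adjusted p = 0.148, and 0.0298 with the replicate block).

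In the cytosol no member was called beside 1.04% of genes, and in the membrane fraction none beside 0.0741%, by edgeR and by DESeq2. At an unadjusted p under 0.05 by edgeR were 2 members in the cytosol, Mcl1 and Bid (log2 -0.35), and 1 in the membrane fraction, Bid (log2 -0.38 ± 0.13, adjusted p = 0.476). The difference in this change between nucleus and cytosol was tested itself, and no member and 0% of 18902 genes were called by edgeR, with 1420 genes at an unadjusted p under 0.05 and 17 calls by DESeq2. Of the members, 2 had an unadjusted p under 0.05, Bcl2l11 (log2 -0.73 ± 0.25) and Bcl2. For Bcl2 the difference was log2 -3.08 ± 0.92 (edgeR, adjusted p = 0.379). Of the 18 other apoptosis genes, Bbc3 (Puma), a BH3-only gene, rose in the cytosol (log2 0.76 ± 0.17, adjusted p = 0.0374) and in the nucleus (0.67 ± 0.17, adjusted p = 0.0434). It was at 0.56 in the membrane fraction (adjusted p = 0.391) and 0.46 in whole cells (adjusted p = 0.336). The call was lost in the cytosol with library size alone and without replicate 1, 2, 4, 5 or 6, and in the nucleus with library size alone and without replicate 3, 4, 5 or 6.

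**Figure D5:**
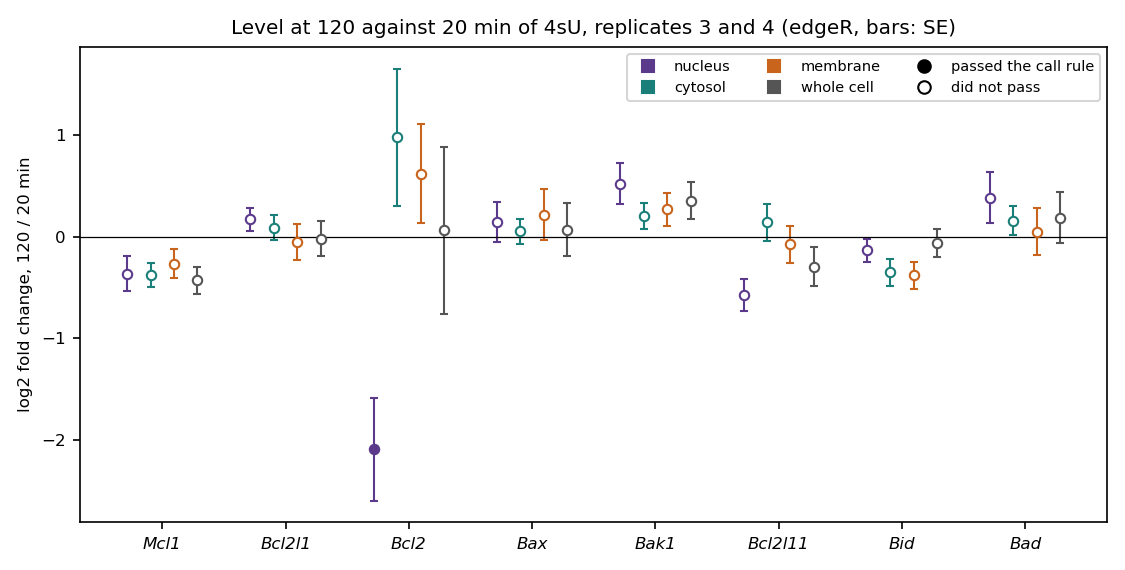
Log2 fold change of the level at 120 against 20 min in replicates 3 and 4 for the 8 members in each fraction, with SE bars. Filled symbols passed the limits, which was the case for nuclear Bcl2 alone (log2 -2.09), and Mcl1 lies between -0.43 and -0.26 in the 4 fractions.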

How the data were processed

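The members and gene lists were chosen with earlier results of these data known. Per the labels and the study's methods, poly(A)-selected, strand-specific libraries were aligned by the authors with STAR 2.7.6 to GRCm38 (Gencode M14). The authors deposited raw counts of reads per gene (HTSeq 0.11.1), and raw counts of Ts and of T2C conversions for exons, whole genes and introns, with SNPs removed. The authors also deposited, as a fraction, each library's conversion rate from a binomial mixture model, and as a ratio the share, in which T2C over T counts is divided by that rate. No background was subtracted. The submitters' processing notes also name RSEM 1.3.3, whose values were not used here. Between 6.26 and 35.9% of unique reads per library lay on no gene or were ambiguous and were left out. The conversion rate ranged from 2.07 to 8.29% in the 64 libraries used throughout and from 8.83 to 12.2% in the other 8.

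Levels were tested with the quasi-likelihood test of edgeR 4.0.16 (R 4.3.3), after filterByExpr and TMM scaling, with Benjamini-Hochberg adjustment over all genes. For fractions the 64 libraries were fitted together, and for labeling times all 18 libraries of a fraction, with 1 group per time and replicate pair. Shares, as log2 of (T2C + 0.5)/(T + 1)/rate, were tested with limma 3.58.1 with trend in genes with at least 400 T counts in each of 48 libraries, with time by replicate pair as covariate. Both were tested on simulated data. DESeq2 1.42.0, other scalings, filters and pseudocounts, a replicate block, single replicate pairs and leaving out each replicate were alternatives. Half-lives were fitted by least squares (Python 3.11.15, scipy 1.17.1). Positions, exons and 3′ UTRs are from GENCODE M21 (GRCm38), to which 51633 of 51826 genes were matched.

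Named are the 8 members, up to 3 called genes with the smallest adjusted p of a list of 21 other apoptosis genes per comparison (further called genes of this list were named after their values were seen, and some are not reported here) and the 2 genes most like each member. The fractions of a replicate and time come from 1 culture by the study's methods. Deviations of nucleus and cytosol correlated with r of -0.19 to 0.49 over genes, and those of membrane fraction and cytosol with 0.21 to 0.70. Depth was 15382522 to 52975732 counts in the 64 libraries, and with 2 libraries per group and no molecular identifiers, errors are spreads between libraries.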

Additional observations from a re-analysis of the deposited data

Results flagged for a closer look

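In 180 groups of 4 libraries of 1 fraction and time, the members' highest or lowest library was compared with the others by its gap over the whole range. Chance flags about 1 in 20 such groups, and 5 were flagged. These groups join 2 replicate pairs. Nuclear Bax at 60 min was at 104 CPM in replicate 3 and at 164 to 170 CPM in the other 3 libraries (gap over range 0.900). Cytosolic Bcl2l11 at 120 min was at 15.3 CPM in replicate 3 and at 19.3 to 19.8 CPM in the others (0.879). The whole-cell share of new Bad mRNA at 60 min was 25.0% in replicate 6 and 8.80 to 10.3% in the others (0.907), in the library described above as standing apart. The whole-cell share of Bid at 20 min was 6.76% in replicate 4 and 5.12 to 5.18% in the others (0.960). The membrane share of Mcl1 at 20 min was 9.76% in replicate 1 and 11.6 to 11.7% in the others (0.927).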

How the results depend on the processing

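Of 1121 member values under alternatives, 1071 kept their direction where called and their side of the limits, 29 came to pass them, 20 no longer passed them and 1 reversed, which was Mcl1, exon share, nucleus versus cytosol, at log2 -0.082 within replicates 5 and 6. A further 54 changed sign with neither value called. Fewer libraries enter the fits of single pairs and those that leave out a replicate. The cause of the other changes was not tested.

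Nucleus against cytosol, 5 members were called without a filter on low counts, with all 72 libraries and within replicates 1 and 2 or 3 and 4, and 3 to 6 when a replicate was left out. For the membrane fraction against the cytosol, library size alone gave 10695 genes and 5 members, replicates 5 and 6 gave 1 member, and leaving out a replicate 0 to 1. For the exon share, replicates 5 and 6 gave 3353 genes and 2 members nucleus against cytosol, replicates 1 and 2 gave 4 members, and replicates 3 and 4 gave 1013 genes membrane against cytosol. The replicate block (culture) gave 9227 genes and 7 members for the first and 1622 genes for the second share test, 10393 and 6190 genes for the levels, and changed no call of a member in these 4 comparisons.

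Over labeling time, leaving out a replicate gave 104 to 565 genes and 0 members in the nucleus, 27 to 862 genes in the cytosol, 1 to 7 in the membrane fraction, 0 to 77 in whole cells (0 without replicate 3 or 4) and 0 to 2 for nucleus minus cytosol. In the same order, DESeq2 gave 975 (2 members), 296, 36, 118 and 17 genes. No filter gave 1242 (2 members), 436, 116, 227 and 6 genes. The replicate block gave 1803 (3 members), 1044, 46, 31 and 61 genes. Library size alone gave 281 genes in the cytosol, 5 in the membrane fraction, 12 in whole cells and 1 for nucleus minus cytosol. No filter gave 42 genes for 60 against 20 min and 49 for 120 against 60 min in whole cells. In replicates 3 and 4, deviations at 20 min correlated with those at 120 min by -0.051 in whole cells, 0.40 in the nucleus, 0.59 in the cytosol and 0.63 in the membrane fraction. With those at 60 min they correlated by 0.12, 0.78, 0.59 and 0.59 in the same order. With 2 replicates it is not settled whether the numbers pair the times. Of 280 half-lives 276 stayed within 1 SD between the replicate pairs. That limit was wide for some (cytosolic Bid 127 ± 136 min), so that the count is a weak measure. Bax in whole cells was at 467 min without a delay, 351 min without 120 min and 482 min without replicate 5, and Bak1 at 333 min without 120 min. Depth limits Bcl2, with 1 to 46 reads per library.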
